A study of Mus musculus with 10 samples.

Results

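Thyroid hormone action in the jejunal epithelium was described here through 5 genes, the deiodinase gene Dio1, the receptor genes Thra and Thrb, the transporter gene Slc16a10 and the hormone-inducible transcription factor gene Klf9. The genes were chosen by name from the 35275 genes of the deposited table, with the fall of Dio1 in induced mice already known, and all 5 were among the 15729 genes kept by a filter on low values (mean level 0.1 FPKM or more). FPKM divide a gene's fragments by its length in kilobases and by the library's total on genes. Because the choice used the contrast of knockout with control mice, the values of the 5 genes in it are a description without a test.

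The thyroid secretes mainly thyroxine (T4), a prohormone, and tissues convert it into the active hormone T3. Type 1 deiodinase (DIO1) is a selenoenzyme that removes iodine from T4 and from inactive metabolites. Hormone enters cells through membrane transporters such as MCT10, the product of Slc16a10, which also carries aromatic amino acids. In the nucleus T3 binds the receptors THRA and THRB, which act with retinoid X receptors (RXR) on target genes such as Klf9. In the intestine the hormone is known for its part in epithelial maturation, and THRA is the receptor best known there.

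Jejunal epithelial cells of 10 C57BL/6 mice were the source of RNA, all with the genotype VillinCreERT2;MYO5Bflox/flox and labelled as adult males. The villin promoter drives the tamoxifen-dependent Cre, so the deletion of MYO5B, a myosin motor of apical membrane recycling, is directed to intestinal epithelium. Control mice (n = 3) were given corn oil and were not induced, so exposure to tamoxifen and loss of MYO5B cannot be told apart in a comparison with them. MYO5B-knockout (MYO5B-KO) mice (n = 4) were given tamoxifen (2 mg) followed by vehicle for 4 days, and LPA-treated MYO5B-KO mice (n = 3) were given tamoxifen (2 mg) and lysophosphatidic acid (LPA, 3 mg/kg, intraperitoneal) for 4 days. All cells were collected on day 4, with no LPA-treated controls among the samples. The description of LPA-treated mouse 1 names both vehicle and LPA, and the mouse was grouped by its title.

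The libraries held 10949420 to 24470409 reads on genes. Control mouse 2 and MYO5B-KO mouse 3 stood apart, with 12242 and 12601 genes detected against 17309 to 18267 in the other 8 libraries, and with 17.4% and 18.05% of reads on mitochondrial genes against at most 3.50%. Results are therefore also given over the other 8 libraries, where control mice 4 and 5 are the only controls. Xist, an RNA of the inactive X chromosome, had 1637 reads in MYO5B-KO mouse 3 and 6568 reads in LPA-treated mouse 1, with 0 reads of Kdm5d, Uty, Ddx3y and Eif2s3y, which goes against the male label. Myo5b itself ranged from 16.5 to 32.0 FPKM in control, 10.5 to 13.6 FPKM in MYO5B-KO and 10.3 to 11.7 FPKM in LPA-treated mice. The log2 difference between MYO5B-KO mice and controls was -0.96 (limma adjusted p = 0.115, edgeR adjusted p = 0.0268), or -1.15 over 8 libraries (limma adjusted p = 0.0175). Gene-level values would include any transcript left outside the deleted part, and reads by exon were not examined.

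The enterocyte label was checked against 10 markers, whose summed level was 31688 to 41651 FPKM in control, 14663 to 27436 FPKM in MYO5B-KO and 23746 to 44658 FPKM in LPA-treated mice. The sum of 8 proliferation markers was 87.6 to 119 FPKM in control, 192 to 312 FPKM in MYO5B-KO and 149 to 228 FPKM in LPA-treated mice. For 10 leukocyte markers the sums were 332 to 460, 18.2 to 139 and 53.1 to 71.9 FPKM in the same order. Of the 10, 6 were lower in every MYO5B-KO mouse than in every control mouse, Cd3g, Gzma and Cd52 among them, beside 6.2% of all genes. Limma called 2 of the 10 lower in that contrast, beside 139 of all 15729 genes tested. Between LPA-treated mice and controls 8 were lower with no overlap, beside 6.38% of all genes. The share of all genes higher with no overlap is not given here, so nothing is read from the 1 marker that was higher. The enterocyte, leukocyte and proliferation sums moved with the groups without overlap between control and MYO5B-KO mice, and their part in the results below was not tested. A sum is weighted to its most abundant markers, and single enterocyte markers had log2 differences from -2.43 to 1.12 in that contrast. Of these 10, limma called 0, and 3 were lower with no overlap, beside 6.2% of all genes. Over the other 8 libraries 6 were lower with no overlap, beside 20.5% of all genes. A further 2 were higher with no overlap, and nothing is read from that count, as no share of all genes stands beside it. In bulk RNA, fewer cells of a type and less RNA per cell cannot be told apart. Sums for 10 stromal and endothelial markers were 1.71 to 7.91, 0.471 to 4.51 and 1.77 to 10.2 FPKM in control, MYO5B-KO and LPA-treated mice, with medians of 1.90, 1.57 and 7.40 FPKM. For 6 neuronal and glial markers they were 1.31 to 2.15, 2.23 to 4.85 and 1.49 to 19.6 FPKM, with medians of 1.41, 2.53 and 16.0 FPKM, and Sox10 was at 0 in every control library. Both medians were highest with LPA, and the part of these cells in the results below was not tested.

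The promoter of the gene with the deepest fall is shown with those of a receptor and of the transporter, so that the letters can be compared. Each runs from 250 bases before to 50 bases after the RefSeq start on build GRCm38.p6, at chr4:107307119-107307418 on the minus strand for Dio1, chr14:17660710-17661009 on the plus strand for the first Thrb promoter and chr10:40142205-40142504 on the minus strand for Slc16a10. Capitals mark AGGTCA, the half-site from which thyroid hormone response elements are built, and GGGCGG, a GC box. Both were searched on both strands (as TGACCT and CCGCCC on the other).
Dio1: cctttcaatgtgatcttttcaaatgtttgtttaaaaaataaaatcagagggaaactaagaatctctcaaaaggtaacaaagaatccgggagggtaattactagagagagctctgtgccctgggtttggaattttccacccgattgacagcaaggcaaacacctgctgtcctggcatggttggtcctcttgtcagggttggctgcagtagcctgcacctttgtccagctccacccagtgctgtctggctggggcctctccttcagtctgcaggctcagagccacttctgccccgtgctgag
Thrb: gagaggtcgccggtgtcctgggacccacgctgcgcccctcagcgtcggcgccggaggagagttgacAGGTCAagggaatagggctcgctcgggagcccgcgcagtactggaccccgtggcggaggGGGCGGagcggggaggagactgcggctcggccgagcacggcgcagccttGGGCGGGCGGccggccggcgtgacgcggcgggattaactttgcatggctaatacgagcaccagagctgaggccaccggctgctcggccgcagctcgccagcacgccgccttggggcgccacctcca
Slc16a10: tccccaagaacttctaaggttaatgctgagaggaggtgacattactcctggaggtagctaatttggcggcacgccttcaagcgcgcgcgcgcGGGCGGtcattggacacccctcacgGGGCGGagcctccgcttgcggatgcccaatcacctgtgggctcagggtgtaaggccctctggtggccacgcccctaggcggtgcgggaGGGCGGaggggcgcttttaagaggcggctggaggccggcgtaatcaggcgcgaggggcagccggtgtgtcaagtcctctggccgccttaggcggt
Neither motif stood in the Dio1 window, whose GC content was 49.67% against a median of 52.67% over 32851 promoters. The Thrb window had 1 AGGTCA, at position -184 from the start, and 3 GC boxes, of which 2 overlap each other, with a GC content of 72.67%. The Slc16a10 window had 3 GC boxes and a GC content of 65.33%. Of all promoters, 16.3% held AGGTCA and 35.7% held GGGCGG. The Klf9 promoter (chr19:23140976-23141275, plus strand, 63.33% GC) and the second Thrb promoter (46% GC) held neither. A match is a description of letters and not a binding site.

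Dio1 (ENSMUSG00000034785, GRCm38 chromosome 4 from 107291465 to 107307169, minus strand) was the gene of the 5 with the highest mean in controls and the lowest mean in both MYO5B-deficient groups. It was present at 29.3, 64.9 and 59.9 FPKM in controls 2, 4 and 5, from 546, 1688 and 1774 reads. In MYO5B-KO mice 3, 5, 6 and 7 the values were 0, 0.686, 0.319 and 0.367 FPKM, from 0, 20, 11 and 14 reads. LPA-treated mice 1, 4 and 5 had 0.339, 0.137 and 0.533 FPKM, from 14, 4 and 12 reads. Every control mouse lay above every mouse of the other 2 groups by more than an order of magnitude, while the MYO5B-KO and LPA-treated groups overlapped. The count of 0 in MYO5B-KO mouse 3 allows up to 0.162 FPKM (3 reads, for counting error only).

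Group means of Dio1 were 51.4 ± 19.3 FPKM (SD, n = 3) in control, 0.343 ± 0.281 FPKM (SD, n = 4) in MYO5B-KO and 0.336 ± 0.198 FPKM (SD, n = 3) in LPA-treated mice. The control mean was 149.7 times the MYO5B-KO mean and 153 times the LPA-treated mean. On the scale of log2(FPKM + 0.1), MYO5B-KO mice differed from controls by -7.11 (SE 0.71), the second lowest of the 15729 differences. Over 8 libraries the difference was -6.87 (SE 0.47). LPA-treated mice differed from controls by -6.91 (SE 0.76), and by -7.27 over 8 libraries. This comparison shares its controls with the contrast by which Dio1 was chosen, so its values are likewise given without a test. Between LPA and vehicle in MYO5B-deficient mice the log2 difference was 0.20 (95% interval -1.37 to 1.76, limma adjusted p = 1), or -0.41 over 8 libraries (limma adjusted p = 0.657).

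**Figure D1:**
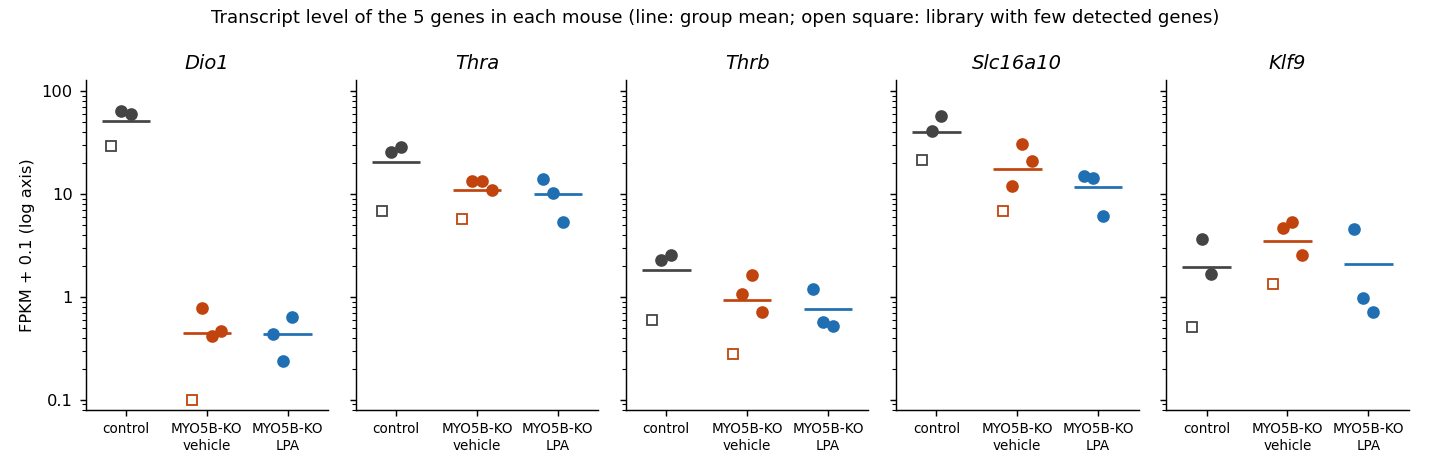
Level of the 5 genes in each mouse, as FPKM + 0.1 on a shared log axis, with control (grey), MYO5B-KO (orange) and LPA-treated MYO5B-KO mice (blue), group means as lines, and control mouse 2 and MYO5B-KO mouse 3 as open squares. Dio1 lies between 29.3 and 64.9 FPKM in controls and at or below 0.686 FPKM in all 7 other mice, while all 3 groups overlap for Thra, Thrb and Klf9, and for Slc16a10 the LPA-treated mice alone lie apart from the controls.

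The other deiodinases were near or below detection. Dio2, the outer-ring deiodinase that also makes T3, had 0 reads in all 3 controls and up to 8 reads elsewhere, and Dio3, which inactivates the hormone, had at most 2 reads. Both were below the filter on low values and were not tested. With 3 reads as the limit, a count of 0 for Dio2 allows a level of up to 0.0467 FPKM in control mouse 2.

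Thra (ENSMUSG00000058756, chromosome 11 from 98740638 to 98769006, plus strand), which encodes the T3 receptor TRα1 and the non-binding variant TRα2, was present at 6.79, 25.5 and 28.5 FPKM in controls 2, 4 and 5. It had 5.59, 13.5, 13.5 and 10.9 FPKM in MYO5B-KO mice 3, 5, 6 and 7, and 14.0, 10.3 and 5.26 FPKM in LPA-treated mice 1, 4 and 5. The groups overlapped because control mouse 2 was low, and both libraries with few detected genes were the lowest of their group. The log2 difference of MYO5B-KO from controls was -0.73 (SE 0.56), and -1.10 (SE 0.37) over 8 libraries. LPA-treated mice differed from controls by -0.90 (SE 0.60, limma adjusted p = 0.482), a difference that passed over 8 libraries (-1.55, SE 0.37, limma adjusted p = 0.0315). This comparison shares its controls with the contrast by which the 5 genes were chosen. Its p-values, here and for the genes below, are therefore not independent of that choice. Gene-level values do not separate the 2 receptor variants.

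The 3′ end of Thra overlaps Nr1d1, the gene of the circadian repressor REV-ERBα on the opposite strand, over 1075 bases of chromosome 11 (98767932 to 98769006). Their exons share 263 bases, 5.70% of the 4614 exon bases of Thra in GENCODE, and the library kit described by the labels does not mark strand. The deposited level of Thra was computed with a shorter length of 2452 bases, and the overlap as a share of that length was not determined. Reads in the shared bases cannot be assigned to either gene by strand. Nr1d1 was present at 2.89, 34.0 and 29.2 FPKM in controls 2, 4 and 5. Its levels were 0.0336, 6.35, 8.97 and 9.97 FPKM in MYO5B-KO mice 3, 5, 6 and 7, and 5.81, 3.08 and 1.24 FPKM in LPA-treated mice 1, 4 and 5. In controls 4 and 5 both genes were at their highest, and the reads of Nr1d1 came to between 0.667% and 148% of those of Thra over the 10 libraries. The log2 difference of Nr1d1 between LPA-treated mice and controls was -2.30 (limma adjusted p = 0.489), or -3.43 over 8 libraries (limma adjusted p = 0.00563). The share of this overlap in the values of Thra was not tested.

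**Figure D2:**
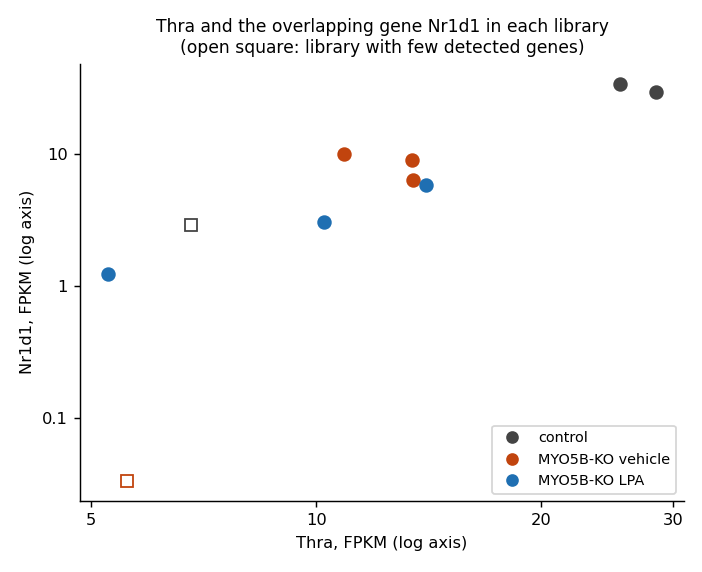
Level of Thra (horizontal) and Nr1d1 (vertical) in each of the 10 libraries, in FPKM on log axes, coloured by group, with the 2 libraries with few detected genes as open squares. Control mice 4 and 5 hold the highest values of both genes, and MYO5B-KO mouse 3 has Nr1d1 at 0.0336 FPKM with Thra at 5.59 FPKM.

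Thrb (ENSMUSG00000021779, chromosome 14 from 17660960 to 18038088, plus strand), the other T3 receptor gene, was the less abundant receptor transcript per length in every library. Control mice 2, 4 and 5 had 0.491, 2.20 and 2.45 FPKM, and MYO5B-KO mice 3, 5, 6 and 7 had 0.180, 0.973, 1.55 and 0.612 FPKM. In LPA-treated mice 1, 4 and 5 it was at 1.10, 0.466 and 0.420 FPKM. The groups overlapped, again with control mouse 2 below several mice of the other groups. The ratio of Thra to Thrb in FPKM ran from 8.66 to 31.0, with both ends of the range in MYO5B-KO mice.

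On the log2 scale Thrb differed between MYO5B-KO mice and controls by -0.97 (SE 0.75), or -1.16 (SE 0.50) over 8 libraries. For LPA-treated mice against controls the difference was -1.10 (SE 0.80, limma adjusted p = 0.518). It was -1.78 (SE 0.50, limma adjusted p = 0.0565) over 8 libraries, so Thrb passed in neither.

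Slc16a10 (ENSMUSG00000019838, chromosome 10 from 40033535 to 40142254, minus strand) followed Dio1 in mean level in controls and had the highest mean of the 5 in both MYO5B-deficient groups. It was present at 21.6, 41.5 and 57.1 FPKM in controls 2, 4 and 5. MYO5B-KO mice 3, 5, 6 and 7 had 6.70, 12.01, 30.9 and 21.1 FPKM, and LPA-treated mice 1, 4 and 5 had 14.8, 14.3 and 6.08 FPKM. All 3 LPA-treated mice lay below all 3 controls, whereas MYO5B-KO mouse 6 lay above control mouse 2. Group means fell in the order control (40.0 ± 17.8 FPKM, SD, n = 3), MYO5B-KO (17.7 ± 10.6 FPKM, SD, n = 4) and LPA-treated mice (11.7 ± 4.91 FPKM, SD, n = 3).

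The log2 difference of Slc16a10 between MYO5B-KO mice and controls was -1.29 (SE 0.56), and -1.29 (SE 0.47) over 8 libraries. LPA-treated mice differed from controls by -1.76 (SE 0.60, 95% interval -3.08 to -0.43), which did not pass over all genes tested (limma adjusted p = 0.171, edgeR adjusted p = 0.0622). It passed after median-ratio scaling (-2.13, limma adjusted p = 0.0391) and over 8 libraries (-2.15, limma adjusted p = 0.0240). The controls are again those used in the choice of the genes.

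Klf9 (ENSMUSG00000033863, chromosome 19 from 23141226 to 23166911, plus strand) encodes a zinc finger transcription factor that T3 and glucocorticoids induce in many tissues. It was present at 0.416, 3.56 and 1.59 FPKM in controls 2, 4 and 5. MYO5B-KO mice 3, 5, 6 and 7 had 1.23, 4.64, 5.25 and 2.47 FPKM, and LPA-treated mice 1, 4 and 5 had 4.46, 0.886 and 0.621 FPKM. The 3 groups overlapped, and Klf9 was the only one of the 5 with a higher mean in MYO5B-KO (3.40 ± 1.87 FPKM, SD, n = 4) than in controls (1.86 ± 1.59 FPKM, SD, n = 3). The spread among the LPA-treated mice (1.99 ± 2.14 FPKM, SD, n = 3) exceeded their mean, because of mouse 1. That mouse is the one with conflicting description lines and with Xist reads.

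The log2 difference of Klf9 was 1.05 (SE 0.84) between MYO5B-KO mice and controls, and 0.69 (SE 0.74) over 8 libraries. It was 0.29 without control mouse 2 and 1.71 without control mouse 4. Between LPA-treated mice and controls it was 0.0057 (95% interval -1.99 to 2.00, limma adjusted p = 1), and it turned to -0.75 over 8 libraries (limma adjusted p = 0.55). LPA and vehicle differed by -1.04 (95% interval -2.91 to 0.82, limma adjusted p = 1). This value was -1.86 without LPA-treated mouse 1, -0.53 without LPA-treated mouse 5 and -2.26 without both libraries with Xist reads (limma adjusted p = 0.429).

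**Figure D3:**
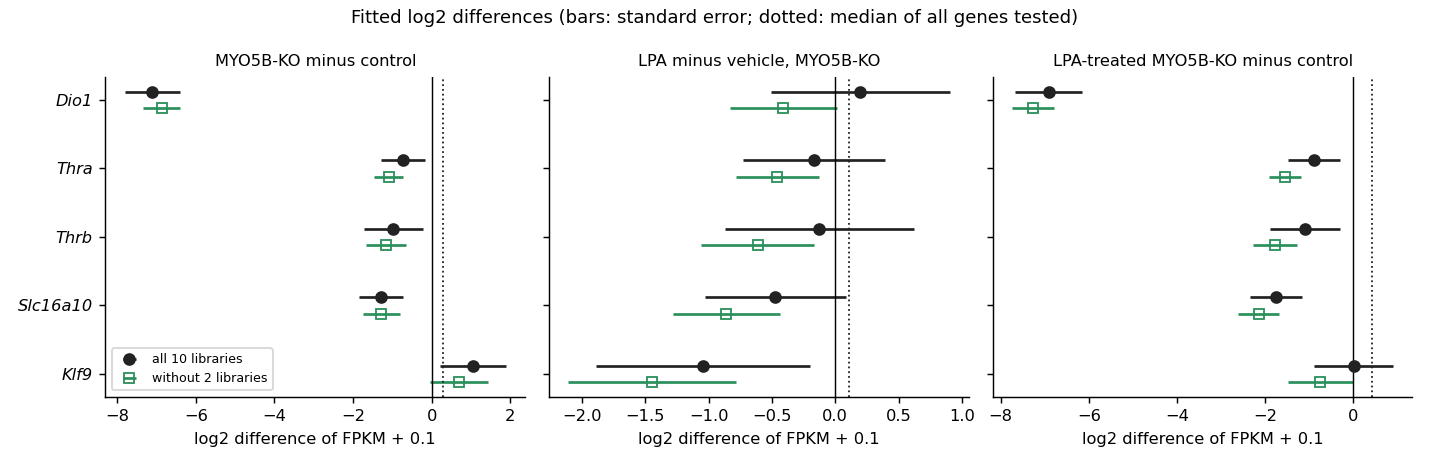
Fitted log2 differences of FPKM + 0.1 for the 5 genes in 3 comparisons, with SE as bars, over all 10 libraries (filled) and over 8 with the pair of low-gene libraries left out (open), and with the median of all genes tested as a dotted line. Dio1 sits at -7.11 and -6.91 against controls and at 0.20 between LPA and vehicle, where the SE of the 5 genes runs from 0.56 to 0.84.

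Set side by side, 4 of the 5 genes had lower means in MYO5B-KO than in controls, but Dio1 alone had groups that did not overlap. Of all genes tested, 6.2% were lower with no overlap and 2.01% passed limma's threshold in this contrast (177 higher and 139 lower, or 222 higher and 376 lower after median-ratio scaling). The choice of the genes used it, so nothing is read from the count. Over 8 libraries Dio1, Thra, Thrb and Slc16a10 were each lower in every MYO5B-KO mouse than in every control mouse, as were 20.5% of all genes. The median log2 difference of all genes was 0.29 in this contrast, 0.11 between LPA and vehicle and 0.41 between LPA-treated mice and controls, and 0.039, 0.042 and 0.10 after scaling.

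Between LPA-treated mice and controls, limma called 0.776% of all genes tested lower, and called none of Thra, Thrb, Slc16a10 and Klf9. No call is given here for Dio1. The 5 genes were chosen with the contrast against the same controls in view, Dio1 by its fall in it. Nothing is therefore read from calls or counts of the 5 genes in this comparison, here or later. In that comparison Dio1 and Slc16a10 were lower with no overlap, as were 6.38% of all genes. Over 8 libraries Thra and Slc16a10 were called lower, as were 4.94% of all genes tested. Over the same 8, Dio1, Thra, Thrb and Slc16a10 were lower with no overlap, as were 18.7% of all genes.

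LPA did not change any of the 5 genes detectably relative to vehicle in MYO5B-deficient mice. The log2 differences were 0.20 for Dio1, -0.17 for Thra, -0.13 for Thrb, -0.47 for Slc16a10 and -1.04 for Klf9, and every 95% interval included 0. Of all genes tested, limma called 0 and edgeR called 0, and 459 (2.92%) had an unadjusted p under 0.05, none of the 5 genes among them. The interval for Thra ran from -1.41 to 1.07, that for Thrb from -1.78 to 1.52 and that for Slc16a10 from -1.71 to 0.77. These intervals leave room for changes of more than 1 on the log2 scale. The comparison shares its vehicle-treated mice with the contrast by which the genes were chosen.

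Other genes of hormone handling and of related groups were taken from 10 lists, chosen with earlier results of these data known. Of 81 listed genes, 80 were in the table and 72 were tested. In MYO5B-KO mice against controls 1 was higher and 1 was lower by limma, or 2.78%, beside 2.01% of all genes, and 9 of them (12.5%, beside 6.52% of all genes) passed over 8 libraries. In LPA-treated mice against controls 0 were higher and 2 were lower, or 2.78%, beside 2.32% of all genes. Over 8 libraries this rose to 5 higher and 11 lower (22.2%, beside 9.98% of all genes). Between LPA and vehicle limma and edgeR called 0 of 72, with 0 at an unadjusted p under 0.05. Against controls, counts at an unadjusted p under 0.05 are given below without the share of all genes at that threshold. Nothing is read from those counts.

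Among 11 other transporters of thyroid hormone, 8 were tested. The amino acid transporter LAT2 (Slc7a8), which also carries the hormone, had 64.9 ± 29.1 FPKM (SD, n = 3) in control, 18.2 ± 6.47 FPKM (SD, n = 4) in MYO5B-KO and 12.1 ± 5.02 FPKM (SD, n = 3) in LPA-treated mice. Its log2 difference between MYO5B-KO mice and controls was -1.80 (limma adjusted p = 0.0661). It passed in that contrast with edgeR (-2.08, edgeR adjusted p = 0.0114), after median-ratio scaling (-2.09, limma adjusted p = 0.0064) and over 8 libraries (-1.90, limma adjusted p = 0.0154). Between LPA-treated mice and controls the difference was -2.38 (limma adjusted p = 0.0323), and the groups did not overlap in either comparison. With 1 mouse left out at a time, the LPA-treated call was lost in 6 of 10 fits, those without control mouse 4 or 5, MYO5B-KO mouse 7 or any LPA-treated mouse, with a highest adjusted p of 0.131 (limma). Slc17a4, another transporter, had a log2 difference of -0.79 in MYO5B-KO mice (limma adjusted p = 0.543). Slc3a2, the heavy chain that LAT1 and LAT2 share, had a log2 difference of -1.22 in MYO5B-KO mice (limma adjusted p = 0.0733, edgeR adjusted p = 0.0171), or -1.29 over 8 libraries (limma adjusted p = 0.0109). LAT1 (Slc7a5), the partner of the same heavy chain, was at 1.05 ± 0.792 FPKM (SD, n = 3) in control and 9.52 ± 6.58 FPKM (SD, n = 4) in MYO5B-KO mice, with a log2 difference of 3.21 (limma adjusted p = 0.0713, and 0.0353 over 8 libraries, edgeR adjusted p = 0.055).

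Of the RXR genes that encode partners of the receptors, Rxra and Rxrb were tested and Rxrg was below the filter. Rxra was at 33.7 ± 9.39 FPKM (SD, n = 3) in control and 21.9 ± 3.42 FPKM (SD, n = 4) in MYO5B-KO mice (log2 difference -0.59, limma adjusted p = 0.316, and 0.0393 after median-ratio scaling), and differed by -0.65 between LPA-treated mice and controls (limma adjusted p = 0.323, 0.0289 after scaling and 0.0283 over 8 libraries). All 12 coregulators of the receptors were tested and none passed in any comparison with limma or edgeR, with 0 at an unadjusted p under 0.05. Their log2 differences between MYO5B-KO mice and controls ran from -0.41 (Gps2) to 0.74 (Tbl1x) over all libraries. The value of Gps2 turned to 1.22 without MYO5B-KO mouse 3, which had 2 reads (0.139 FPKM), whereas the other 3 MYO5B-KO mice had 20.3 to 25.4 FPKM and controls 2.35 to 19.1 FPKM. Tbl1x was at 0.17 without control mouse 2.

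Hormone-responsive genes other than Klf9 had differences on both sides of 0. Of 10 tested, 1 passed in MYO5B-KO mice against controls, the fructose transporter gene Slc2a5. It was at 187 ± 20.9 FPKM (SD, n = 3) in control, 32.3 ± 21.0 FPKM (SD, n = 4) in MYO5B-KO and 16.6 ± 3.72 FPKM (SD, n = 3) in LPA-treated mice. Its log2 differences from control were -2.79 (limma adjusted p = 0.0218) and -3.50 (limma adjusted p = 0.0089). The first call was lost without control mouse 4, control mouse 5 or MYO5B-KO mouse 5 (limma adjusted p = 0.0766, 0.104 and 0.0589), and the second without LPA-treated mouse 5 (limma adjusted p = 0.0521). Atp1b1, a sodium pump subunit gene, had a log2 difference of -0.38 in MYO5B-KO mice (limma adjusted p = 0.736), and Ctnnb1, the gene of β-catenin, one of 0.99 (limma adjusted p = 0.669), which turned to -0.29 without control mouse 2.

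Genes of hormone binding and conjugation included Sult1b1, a sulfotransferase that acts on thyroid hormone. It was at 164 ± 103 FPKM (SD, n = 3) in control and 41.3 ± 19.8 FPKM (SD, n = 4) in MYO5B-KO mice, a log2 difference of -1.86 (limma adjusted p = 0.158, and 0.0083 over 8 libraries). Crym, which encodes a T3-binding protein of the cytosol, had a log2 difference of -1.77, Ttr one of -0.43 and Sult1d1 one of -0.35. The sign of Ttr turned without MYO5B-KO mouse 3 (0.85), and Sult1d1 ran from -1.83 without control mouse 2 to 0.41 without control mouse 4. None of the 6 genes of this list passed over all libraries with limma in any comparison, with 1 at an unadjusted p under 0.05 against controls in each MYO5B-deficient group, and edgeR called Sult1b1 in MYO5B-KO mice (adjusted p = 0.0447).

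DIO1 is a selenoenzyme. Of 11 other selenoprotein genes tested, 0 passed with limma or edgeR in any comparison over all libraries, with 1, 0 and 2 at an unadjusted p under 0.05 in MYO5B-KO against control, LPA against vehicle and LPA-treated against control mice, and their log2 differences ran from -2.29 to 0.65 between MYO5B-KO mice and controls. The lowest was that of Sepp1 (selenoprotein P, the plasma carrier of selenium), at 975 ± 696 FPKM (SD, n = 3) in control and 182 ± 95.8 FPKM (SD, n = 4) in MYO5B-KO mice (limma adjusted p = 0.161, and 0.0148 over 8 libraries). Gpx2, the gastrointestinal glutathione peroxidase, had a log2 difference of -0.18 (0.76 without control mouse 2), Gpx1 one of -0.35 and Gpx4 one of -1.11. The 6 genes of selenoprotein synthesis had log2 differences of 0.078 to 0.67, and 0 passed in any comparison with limma or edgeR, with 0 at an unadjusted p under 0.05.

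Klf9 also responds to glucocorticoids, and 7 genes with that property were tested. Fkbp5, which encodes a co-chaperone of steroid receptors, was at 13.02 ± 7.30 FPKM (SD, n = 3) in control, 63.4 ± 26.8 FPKM (SD, n = 4) in MYO5B-KO and 62.4 ± 30.1 FPKM (SD, n = 3) in LPA-treated mice, with no overlap with controls. Its log2 difference was 2.39 in MYO5B-KO (limma adjusted p = 0.0438) and 2.35 in LPA-treated mice (limma adjusted p = 0.0536, edgeR adjusted p = 0.0359). The first call was lost in 9 of the 10 fits that left out 1 mouse (limma adjusted p up to 0.136), all but that without MYO5B-KO mouse 3. Tsc22d3, the glucocorticoid-induced leucine zipper gene, had the opposite sign, with a log2 difference of -1.59 in MYO5B-KO mice (limma adjusted p = 0.06, and 0.0096 over 8 libraries). The genes of this list therefore lay on both sides of 0. Of 10 other Kruppel-like factor genes, 0 passed in any comparison over all libraries with limma or edgeR, with 4, 0 and 3 at an unadjusted p under 0.05 in the same order of comparisons as above. The counts against controls have no share of all genes beside them, so nothing is read from them. Klf3, Klf6, Klf5 and Klf4 had log2 differences of 1.89, 1.34, 0.74 and -0.25 in MYO5B-KO mice, and that of Klf4 turned to 0.25 without MYO5B-KO mouse 3.

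**Figure D4:**
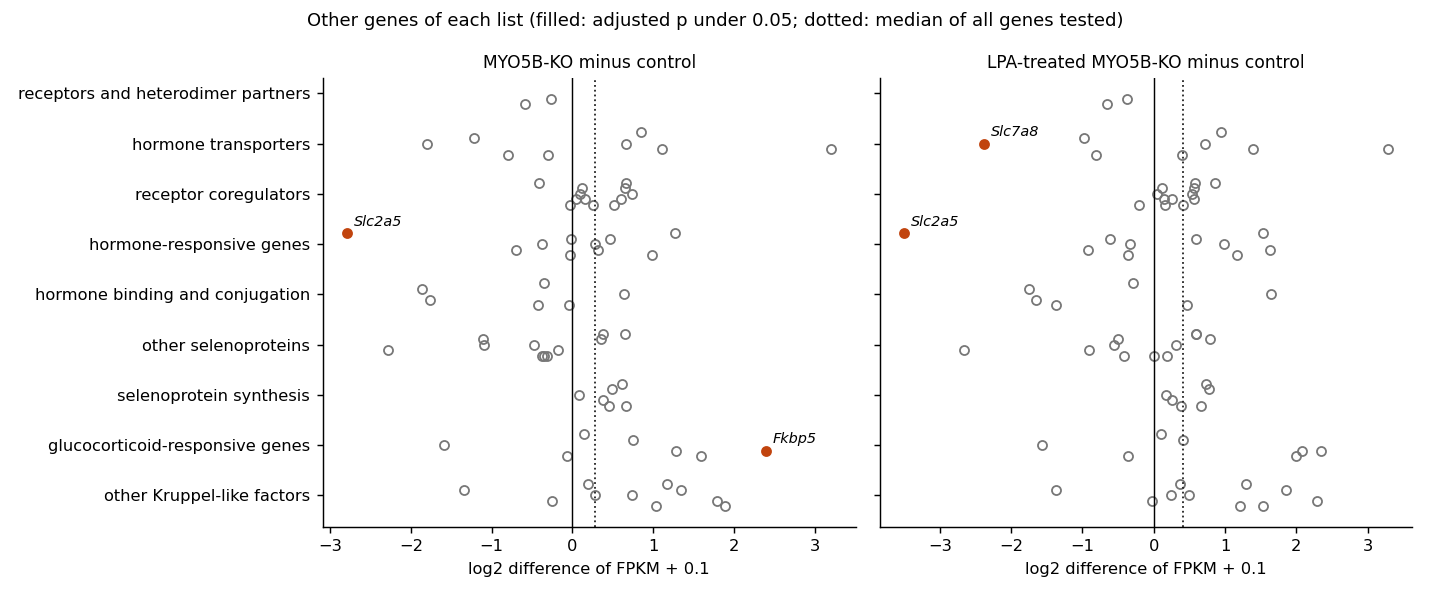
Log2 differences of FPKM + 0.1 from controls for the tested genes of 9 lists, in MYO5B-KO (left) and LPA-treated MYO5B-KO mice (right), 1 point a gene, with genes past a limma adjusted p of 0.05 filled and named and the median of all genes tested as a dotted line. Slc2a5 and Fkbp5 are filled on the left and Slc2a5 and Slc7a8 on the right, and every other point is open.

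The genes most like each of the 5 over the 10 libraries were sought by Pearson correlation on the log2(FPKM + 0.1) scale, among the 10575 genes whose mean reached 1 FPKM. The libraries fall into 3 groups and include 2 with few detected genes, so these values describe likeness of pattern only. For Dio1 they were Dcaf11 (0.986), Mbl2 (0.980) and D330041H03Rik (0.977), and Mbl2, a mannose-binding lectin gene, had a log2 difference of -6.77 between MYO5B-KO mice and controls, given without a test because likeness to Dio1 chose it. For Thra they were Gstz1 (0.992), Foxo4 (0.988) and Slc25a51 (0.983), and for Thrb they were Rhobtb3 (0.972), Vav2 (0.969) and Atxn7l3b (0.967). Slc16a10 was most like Cyp4f14 (0.978), Enpp7 (0.973) and Asah2 (0.973), of which the latter pair encode the sphingomyelinase and ceramidase of the brush border. Klf9 was most like Nr5a2 (0.972), Cbfa2t2 (0.971) and Usp9x (0.964). No gene was named for more than 1 of the 5.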

How the data were processed

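RNA-seq of jejunal epithelial cells from 10 mice was analysed from the table that the authors deposited, which gives FPKM per gene and library, with no scaling between libraries stated. The submitters' processing notes name STAR 2.5, TopHat, HTSeq 0.6.1, DESeq2 and the GRCm38 (mm10) genome, without their roles. The authors also deposited read counts for a few genes beside columns of their own comparisons (fold changes, p-values and enrichment), and those columns were not used. The FPKM were whole multiples of 1 read per gene length in each library (tolerance 0.02 of a read, 100% of low values), and the recovered reads equalled 63 of 63 deposited counts, giving 10949420 to 24470409 reads on genes per library. Intervals and limits from reads cover counting error only.

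Groups were taken from the sample titles. Log2(FPKM + 0.1) of the 15729 genes whose mean reached 0.1 FPKM was fitted over all 10 libraries with limma 3.58.1 (R 4.3.3, trended variance, two-sided, Benjamini-Hochberg over all genes tested, threshold 0.05). The fit was also run on data simulated from a common mean profile with a fixed spread. That simulation held no libraries with few detected genes, so it says nothing on their effect here. Alternatives were a pseudocount of 1, no filter, median-ratio scaling, edgeR 4.0.16 on recovered reads, each mouse left out, a replicate block, and the libraries with few detected genes or with Xist reads left out. The last of these and the unblocked fit of mice 4 and 5 were added after the data were seen. The 5 genes and all lists were chosen with earlier results of these data known. Named besides them were genes overlapping one of the 5, list genes that passed or were among the 4 most abundant of a list, the 3 genes most like each of the 5, and Myo5b. Tbl1x, Slc7a5, Rxrg and the Y-linked genes were named after their values were seen. Labels do not tie the libraries to litters or dates, so an effect of either cannot be told apart from the groups. The p-values weigh a group difference against the spread between these mice within groups. Promoters are RefSeq sequences of build GRCm38.p6, found for 4 of the 5 genes (not Thra), and gene overlap is from GENCODE M21. Values of a few list genes are not reported here.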

Additional observations from a re-analysis of the deposited data

How the results depend on the processing

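Dio1 in LPA-treated against control mice had log2 differences from -7.54 to -5.22 over the alternatives run, a description only, since its fall against the same controls chose it. Of the other genes of the 5, none passed in that comparison over all libraries or with any 1 mouse left out. Slc16a10 passed after median-ratio scaling, and Thra and Slc16a10 passed over 8 libraries (without control mouse 2 and MYO5B-KO mouse 3). These calls rest on the controls used in the choice of the 5 genes. For the other list genes in MYO5B-KO against control mice, the 2 calls became 1 with no filter on low values, 7 after scaling, 5 with edgeR, 9 over 8 libraries and 0 to 4 with 1 mouse left out. In LPA-treated against control mice their 2 calls became 6 after scaling, 4 with edgeR, 16 over 8 libraries and 0 to 4 with 1 mouse left out. Over all genes, 316 calls in MYO5B-KO against control mice became 188 with no filter, 598 after scaling, 1032 over 8 libraries and 44 to 448 with 1 mouse left out, and 365 calls in LPA-treated against control mice became 1579 over 8 libraries and 75 to 719 with 1 mouse left out. The causes were not tested.

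Some small differences changed sign. Dio1 between LPA and vehicle was 0.20, and was -0.080 with edgeR, -0.41 over 8 libraries and -0.47 without the 2 libraries with Xist reads. Klf9 in LPA-treated against control mice was 0.0057, and was -0.0020 with a pseudocount of 1, -0.32 after scaling, -0.16 with edgeR, -0.75 over 8 libraries, -0.81 without the 2 libraries with Xist reads and -1.56 in mice 4 and 5 alone. With 1 mouse left out it ran from -0.81 to 0.66. In MYO5B-KO against control mice the ranges with 1 mouse left out were 0.29 to 1.71 for Klf9, -1.38 to -0.36 for Thra, -1.65 to -0.49 for Thrb and -1.68 to -0.90 for Slc16a10. Between LPA and vehicle they were -1.86 to -0.53 for Klf9, -0.41 to 0.58 for Dio1, -0.48 to 0.22 for Thra, -0.61 to 0.24 for Thrb, -1.52 to 0.56 for Nr1d1 and -0.41 to 0.26 for Fkbp5.

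Control and LPA-treated mice share the numbers 4 and 5, which the labels do not tie to a litter or day (correlation of deviations over genes 0.025). With these numbers as a replicate block in those 4 mice, 4 of the 5 genes, 20 other list genes and 1802 genes in all passed, and Klf9 was at -1.56. Without the block the same mice gave 2, 8 and 880. A fit of 4 mice with a block leaves very little from which to estimate the spread. The 5 genes were also chosen with these controls in view, and no share of all genes tested stands beside these counts. Nothing is read from them. No paired analysis was possible for the other comparisons because their groups share only number 5. Dio1 rests on at most 20 reads in each MYO5B-deficient library, so depth limits any difference between LPA and vehicle for it.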
